A study of Homo sapiens with 6 samples.

Results

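The insulin-like growth factor (IGF) axis of Huh7, a human hepatocellular carcinoma line, was followed through 10 genes: the ligand gene IGF2, the receptor gene IGF1R, the binding protein genes IGFBP1, IGFBP2 and IGFBP4, the glypican gene GPC3, the delta-like gene DLK1 and the RNA-binding protein genes IGF2BP1, IGF2BP2 and IGF2BP3. They were taken by gene name from a table of 27394 names; 9 of the 10 were found and IGFBP2 was not analysed here. The RNA-seq libraries came from 2 Huh7 derivatives, a control line (sh_con, genotype WT) and a line in which a short hairpin RNA (shRNA) knocks down CTSV, the gene of the lysosomal protease cathepsin V, with 3 libraries per group. The series design sets the comparison up to follow what CTSV does in liver cancer and has both lines collected at matching times. Whether each line was a pool or a clone, how many hairpin sequences were used and how long after knockdown RNA was taken are not stated in the labels. As no label ties the libraries to separate cultures, p-values here measure the spread among 3 libraries a group, and that spread may be technical.

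As background, IGF2 is a growth factor of fetal liver that signals through the receptor tyrosine kinase IGF1R and is removed by the decoy receptor IGF2R. Secreted IGFBPs hold IGFs away from the receptor or deliver them to it. GPC3 is a heparan sulfate proteoglycan anchored in the cell membrane and, like DLK1, a marker of fetal liver cells that returns in liver cancer. The IGF2BPs bind mRNAs, IGF2 mRNA among them, and change their stability and translation. IGF2BP1 and IGF2BP3 are mostly silent in adult tissue and are targets of the let-7 microRNAs.

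Library totals lay between 16258803 and 18106207 counts. CTSV itself was at 42.6 ± 1.79 CPM (counts scaled to the normalised library size, SD, n = 3) in controls and 16.9 ± 1.31 CPM in knockdown libraries, which is 0.396 of the control level (adjusted p = 7.2e-14). Of 15968 genes tested, 40.3% were called at an adjusted p under 0.05 (edgeR's quasi-likelihood test), 18.7% as higher and 21.6% as lower in knockdown cells. All 11 hepatocyte markers were in the table, with ALB highest at a mean of 12400 CPM, and their summed level was 34300 to 35100 CPM in controls and 42000 to 43100 CPM in knockdown libraries. Listed markers of other cells were far lower: 4 of 7 immune markers summed to 75.6 to 84.3 CPM in controls and 57.0 to 62.4 CPM in knockdown libraries, most of it LYZ (mean 66.7 CPM), and 4 of 7 stellate cell markers to 12.3 to 15.1 and 21.1 to 27.0 CPM. For endothelial cells, 2 of 6 markers summed to 18.1 to 23.5 and 19.6 to 21.8 CPM, and for cholangiocytes 4 of 5 to 176 to 193 and 174 to 187 CPM. The other listed markers were not analysed here, and no marker analysed was at 0 in all libraries. Mitochondrial genes took 9.09% to 9.51% of counts in controls and 11.4% to 11.8% in knockdown libraries. The part of these differences in the results below was not tested, except that leaving mitochondrial genes out changed no call among the 8 tested genes.

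In knockdown cells GPC3 and IGF2 rose, IGF1R and IGF2BP1 fell, and IGF2BP2, IGF2BP3, IGFBP4 and DLK1 were not called. GPC3 moved most, to 1.48 times the control level. IGF2 reached 1.18 times, IGF2BP1 0.883 times and IGF1R 0.861 times the control level. These are bulk values, in which fewer cells of a kind and less RNA per cell cannot be told apart. Thus 4 of the 8 tested genes were called, 2 in each direction, against 40.3% of all tested genes. All 4 calls fell among the 6 genes whose average log2 CPM reached 6. Of all 3614 tested genes at that level 63.8% were called, so the share called is near the background. Those 3614 genes had a median log2 fold change of -0.105 and a median absolute value of 0.2. IGF2 (0.24), IGF1R (-0.22) and IGF2BP1 (-0.18) thus changed by about as much as a typical gene at that level, and GPC3 (0.57) by more. None of the 8 reached 1.5-fold in the fit, against 12.6% of all tested genes that were called and did, but GPC3 lay close to that limit. It passed 1.5-fold in 4 of 15 alternatives: with length and GC offsets (1.54-fold), with library totals in place of TMM (1.53-fold), without knockdown replicate 1 (1.51-fold) and without control replicate 2 (0.59 on the log2 scale). In 5 of the 8 the groups did not overlap in CPM, against 49.2% of all tested genes.

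**Figure D1:**
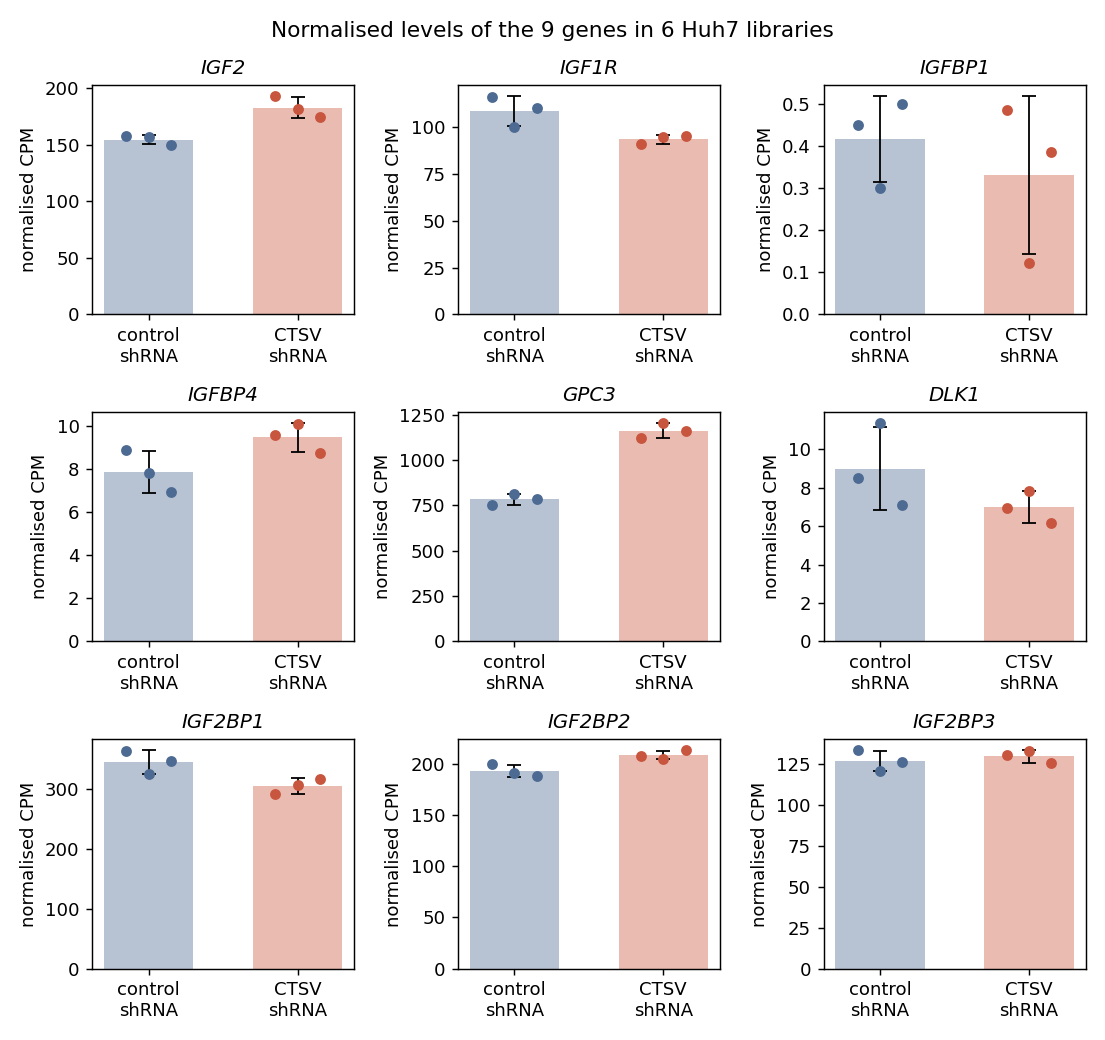
Normalised level in CPM (y axis, from 0, own scale in each panel) of 9 genes in the control shRNA and CTSV shRNA libraries; points are libraries, bars group means and error bars SDs (n = 3). The groups are apart for IGF2, IGF1R, GPC3, IGF2BP1 and IGF2BP2 and overlap for IGFBP1, IGFBP4, DLK1 and IGF2BP3.

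IGF2, the ligand, stood higher in the knockdown group throughout. The gene (ENSG00000167244) is found on chromosome 11 (minus strand, 2129112 to 2141238, hg38, as for all positions below). Its raw counts were 2806, 2598 and 2403 in controls and 3192, 2991 and 3163 in knockdown libraries. Normalised, this was 157.3, 156.3 and 149.7 CPM against 193.1, 181.2 and 174.0 CPM. The control values lay close together and the lowest knockdown library was above all of them. IGF2 rose by 0.24 on the log2 scale (95% interval 0.14 to 0.35, adjusted p = 0.000278), to 1.18 times the control level. The gene body shares its position with IGF2-AS on the opposite strand, whose counts came to 0.851% of those of IGF2. The sources used here do not say whether counting used strand, and the read-through gene INS-IGF2 at the same place was not analysed here.

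IGF1R, the receptor tyrosine kinase for IGF1 and IGF2, moved the other way. It (ENSG00000140443) is found on chromosome 15 (plus strand, 98648971 to 98964530). Levels were 116.1, 100.1 and 110.2 CPM in controls and 90.9, 94.8 and 95.4 CPM in knockdown libraries. The groups did not overlap, but control replicate 2 was only slightly above the highest knockdown library. IGF1R fell by 0.22 on the log2 scale (95% interval -0.34 to -0.09, adjusted p = 0.00399), to 0.861 of the control level. Without control replicate 1 the fold change was -0.17 with an adjusted p of 0.0453. The other receptors on the list were IGF2R, the scavenger of IGF2, and INSR, the insulin receptor. IGF2R fell by 0.16 (adjusted p = 0.00313), from 846.6 ± 55.3 to 757.2 ± 12.8 CPM (n = 3 each). INSR was at 98.96 ± 6.81 and 99.8 ± 4.13 CPM (log2 fold change 0.01, adjusted p = 0.887). The ratio of IGF2 to IGF1R counts, which is free of library scaling, was 1.36, 1.56 and 1.36 in controls and 2.12, 1.91 and 1.82 in knockdown libraries. That is 1.37 times higher on average, with an exact two-sided permutation p of 0.1, the smallest that 3 against 3 libraries can give, and 0.12 after adjustment over 6 ratios. The ratios of IGF2BP1 to IGF2BP3 and IGFBP1 to IGF2 were planned, and the other 4 were added after seeing the data. Among the added ratios, IGF2 to IGF2R was 0.181, 0.199 and 0.168 in controls and 0.260, 0.237 and 0.228 in knockdown libraries, again without overlap (exact permutation p = 0.1, 0.12 adjusted). IGF2 was already seen to rise and IGF1R and IGF2R to fall, each without overlap. The gaps in their ratios are therefore no separate evidence.

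The binding proteins were at low levels. IGFBP1, a liver-secreted protein whose gene insulin represses, had 8, 5 and 8 counts in controls and 8, 2 and 7 in knockdown libraries. It (ENSG00000146678) is found on chromosome 7 (plus strand, 45888357 to 45893668) and stayed below the count filter. Its ratio of knockdown to control was 0.798, with an exact 95% interval from 0.395 to 1.59 that covers counting error only. A fall to 0.395, no change and a rise to 1.59 times the control level all lie within the interval. Relative to IGF2, IGFBP1 had a log2 ratio between -10.55 and -8.23 over the 6 libraries, and the groups overlapped (exact two-sided permutation p = 0.4, 0.4 adjusted over 6 ratios).

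IGFBP4, an IGF inhibitor that the protease PAPPA cleaves, (ENSG00000141753) is found on chromosome 17 (plus strand, 40443461 to 40457731). It was at 8.86, 7.82 and 6.92 CPM in controls and 9.56, 10.06 and 8.75 CPM in knockdown libraries. Knockdown replicate 3 lay inside the control range, and the other knockdown libraries lay above it. The log2 fold change was 0.26 (95% interval -0.06 to 0.59, adjusted p = 0.199), so that both no change and a rise to 1.5 times the control level lie within the interval.

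Among the other 8 tested IGFBPs, proteases that act on them or on IGF precursors and inhibitors of those proteases, 2 rose, 2 fell and 4 were not called, with a median log2 fold change of -0.07 against 0.02 for all tested genes, of which 40.3% were called. IGFBP5, a matrix-bound IGFBP, rose by 1.06 (adjusted p = 0.00289) from 1.87 ± 0.331 to 3.91 ± 0.246 CPM (n = 3 each). PAPPA2, a protease that cleaves IGFBP5, passed the test at a level under 1 CPM (1.69, adjusted p = 0.0422). That call was lost with DESeq2 (adjusted p = 0.127), without the low-count filter (0.0684), with all entries kept (0.0764) and on leaving out control replicate 1 or 2 (0.144 and 0.22) or knockdown replicate 1, 2 or 3 (0.0624, 0.154 and 0.0797). STC2, a secreted inhibitor of PAPPA, fell by 1.25 on the log2 scale, from 159.5 ± 1.85 to 66.9 ± 1.68 CPM (n = 3 each). The proprotein convertase gene FURIN fell by 0.24. IGFBP3, the main carrier of IGFs in plasma, was at 7.78 ± 1.27 and 6.70 ± 1.14 CPM (n = 3 each), a log2 fold change of -0.21 that was not called (adjusted p = 0.375).

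GPC3 was the most abundant of the 9 genes and had the largest fold change that passed the test. It (ENSG00000147257) is found on chromosome X (minus strand, 133535745 to 133985895). Raw counts were 13451, 13510 and 12602 in controls and 18554, 19874 and 21045 in knockdown libraries. Levels were 754.1, 813.0 and 785.1 CPM against 1122, 1204 and 1158 CPM. The gap between the groups was far wider than the spread inside either. GPC3 rose by 0.57 on the log2 scale (SE 0.0412, 95% interval 0.48 to 0.65, adjusted p = 1.05e-13). By mean CPM over all libraries it ranked 67 among 15968 tested genes. The summed hepatocyte markers given above moved in the same direction. Of those 11 genes 8 rose and 1 fell, where 18.7% of all tested genes rose and 21.6% fell. At an average log2 CPM of 6 or more, 63.8% of tested genes were called either way. The part of the marker changes in the GPC3 result was not tested.

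Among the other 16 tested genes of glypicans, syndecans and heparan sulfate synthesis, 2 rose, 4 fell and 10 were not called. Their median log2 fold change was -0.12, and 40.3% of all tested genes were called. GPC6, a glypican, rose by 0.31 (adjusted p = 0.000633), from 56.6 ± 5.96 to 70.4 ± 2.14 CPM (n = 3 each). SDC4, a syndecan that carries the same kind of sugar chain, fell by 0.68 from 177.7 ± 4.62 to 110.7 ± 4.84 CPM (n = 3 each). HS2ST1, a sulfotransferase of heparan sulfate, fell by 0.36. The syndecan gene SDC2 (-0.08) and the sulfotransferase gene NDST1 (0.08) were not called. With GPC3 counted, 7 of the 17 tested genes of this list were called, which became 4 without control replicate 3. The ratio of GPC3 to GPC6 counts was 12.7, 16.3 and 13.0 in controls and 16.5, 16.6 and 16.4 in knockdown libraries. Control replicate 2 was thus near the knockdown libraries (exact two-sided permutation p = 0.1, 0.12 adjusted over 6 ratios).

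DLK1, a membrane protein of hepatoblasts related to Notch ligands, (ENSG00000185559) is found on chromosome 14 (plus strand, 100725705 to 100738224). It was at 8.52, 11.4 and 7.10 CPM in controls and 6.96, 7.82 and 6.16 CPM in knockdown libraries. Control replicate 2 stood above all other libraries, and the groups overlapped. The log2 fold change was -0.37 (SE 0.178, 95% interval -0.73 to -0.01, adjusted p = 0.0982) and was not called. It depended on which control was kept: without control replicate 2 it was -0.17 (adjusted p = 0.524), and without control replicate 3 it was -0.51 and passed the test (adjusted p = 0.0275).

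DLK1 and IGF2 lie in separate imprinted clusters, expressed from the paternal copy. Among the other 10 tested genes of these loci and of the network of imprinted growth genes, the median was 0.04. Of these, 2 rose, 1 fell and 7 were not called, beside 40.3% of all tested genes called. KCNQ1OT1, the long noncoding RNA of the neighbouring cluster on chromosome 11, rose by 0.62 (adjusted p = 1.86e-08), and PHLDA2, a growth-restraining gene of that cluster, fell by 1.21 from 5.04 ± 0.506 to 2.17 ± 0.387 CPM (n = 3 each). PLAGL1, a zinc finger factor of the imprinted network, rose by 0.28, a call lost without knockdown replicate 3 (0.19, adjusted p = 0.0667). PEG10, at 1526 ± 39.6 and 1573 ± 33.5 CPM (n = 3 each), and the adaptor gene GRB10 (log2 fold change under 0.01) were not called. Of 11 tested Notch pathway genes 4 rose and 1 fell (median 0.07), where 18.7% of all tested genes rose and 21.6% fell. The receptor genes NOTCH2 (0.36) and NOTCH3 (0.80) and the ligand gene JAG1 (0.31) rose. HES1, a Notch target, fell by 0.36, a call lost without control replicate 1 (-0.30, adjusted p = 0.0501) or knockdown replicate 2 (-0.28, adjusted p = 0.064). NOTCH1 at 16.4 ± 2.72 and 16.3 ± 2.42 CPM (n = 3 each) and the coactivator gene MAML1 (0.07) were not called.

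**Figure D2:**
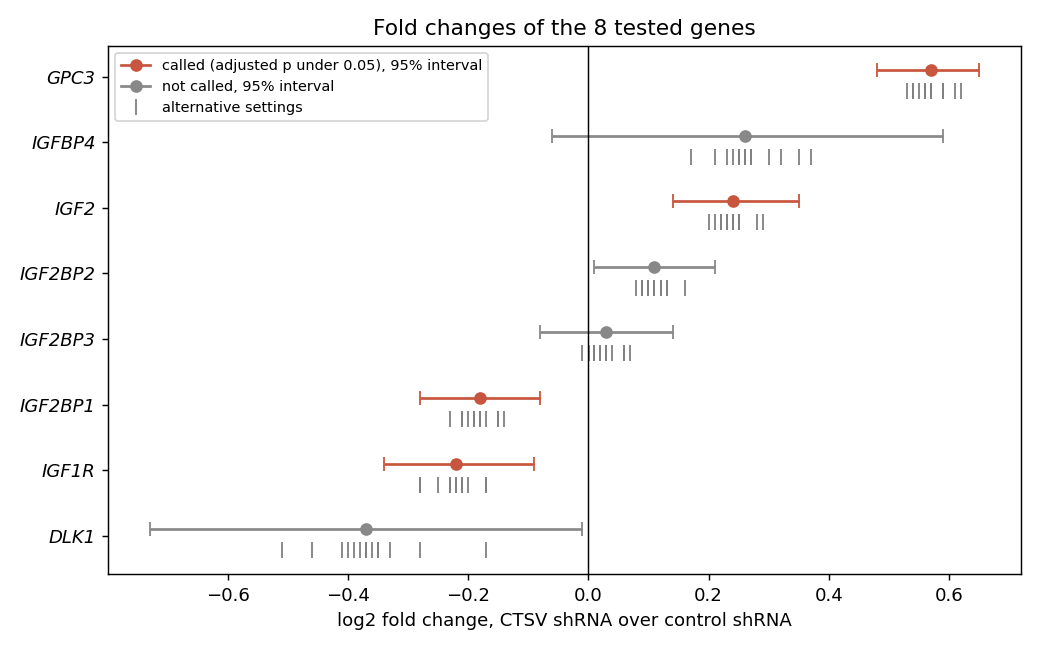
Log2 fold change, CTSV shRNA over control shRNA (x axis), of the 8 tested genes with 95% intervals; red marks called genes, grey those not called, and ticks the 15 alternative settings. The ticks of GPC3 lie between 0.53 and 0.62, those of DLK1 between -0.51 and -0.17, and those of IGF2BP3 reach both sides of 0.

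The IGF2BP genes are shown with their let-7 seed matches, since these paralogs share that regulator and differ in how many matches they hold. The 9 let-7 family microRNAs in the RefSeq table (GRCh38.p14) have the same seed, bases 2 to 8, in capitals in the first sequence. The matches in the 3′ UTR of the annotated principal transcripts (GENCODE v29) follow, 5′ to 3′ on the RNA strand, with the match to the seed, and an A after it where there is one, in capitals.
hsa-let-7a-5p: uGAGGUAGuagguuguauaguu
IGF2BP1, chr17:49051061-49051086, plus strand: tgtgtgcgaagtaaaCTACCTCAagg
IGF2BP1, chr17:49053698-49053723, plus strand: cagcagtgctagtaaCTACCTCAcag
IGF2BP1, chr17:49054352-49054377, plus strand: gtataaatggattaaCTACCTCAatc
IGF2BP1, chr17:49054997-49055022, plus strand: tcacttttgttttatCTACCTCttag
IGF2BP2, chr3:185644217-185644242, minus strand: aacacacagaagaagCTACCTCAggt
IGF2BP3, chr7:23311792-23311817, minus strand: tgcatttttactcaaCTACCTCAggt
IGF1R, chr15:98960046-98960071, plus strand: cccccaaacatttatCTACCTCActc

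The motif searched was CTACCTC on the transcript strand. IGF2BP1 held 4 matches in 6206 bases, and 0.69% of the 579 tested 3′ UTRs of 0.8 to 1.25 times its length held as many. IGF2BP2 and IGF2BP3 held 1 each in 1792 and 2153 bases, as did 11.64% and 12.21% of 3′ UTRs near their lengths, counting those with more. IGF1R held 2 in 7088 bases, of which the one with the A is shown, and 7.49% of 3′ UTRs near its length held as many. No match was found in the windows searched for IGF2, IGFBP4, GPC3 and DLK1. A match is a description of the sequence, and no microRNA level was measured. Of all 1227 tested genes with a match, 250 rose and 305 fell, which is 45.2% called, and of the 11290 without one 44.8% were called. Of the 141 with 2 or more matches, 32 rose and 36 fell (48.2% called, median log2 fold change -0.01). Whether the matches bear on any change was not tested.

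IGF2BP1 was lower in the knockdown group throughout. It (ENSG00000159217) is found on chromosome 17 (plus strand, 48997412 to 49055650). Levels were 363.3, 324.3 and 346.8 CPM in controls and 290.8, 306.7 and 315.9 CPM in knockdown libraries. The lowest control was close to the highest knockdown library. IGF2BP1 fell by 0.18 on the log2 scale (95% interval -0.28 to -0.08, adjusted p = 0.00302), to 0.883 of the control level.

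IGF2BP2, the paralog that is also expressed in adult tissue, (ENSG00000073792) is found on chromosome 3 (minus strand, 185643739 to 185825056). It was at 200.0, 191.5 and 188.4 CPM in controls and 208.2, 205.3 and 213.5 CPM in knockdown libraries. All knockdown libraries were above all controls, by a small margin. The log2 fold change of 0.11 (95% interval 0.01 to 0.21) was not called (adjusted p = 0.0652). It passed the test at a mean CPM of at least 1 (0.12, adjusted p = 0.0469), with length and GC offsets (0.13, 0.0139) and with library totals in place of TMM (0.16, 0.0109).

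IGF2BP3, the other oncofetal paralog, (ENSG00000136231) is found on chromosome 7 (minus strand, 23310209 to 23470467). Its levels were 133.4, 120.8 and 126.2 CPM in controls and 130.3, 132.9 and 125.5 CPM in knockdown libraries. The knockdown libraries lay inside the control range. The log2 fold change was 0.03 (adjusted p = 0.688), with a 95% interval from 0.946 to 1.10 times the control level. MALSU1, on the opposite strand and overlapping the gene body, had counts equal to 23.8% of those of IGF2BP3, and strand use is not known. How many reads the shared bases hold was not measured, so the IGF2BP3 value is uncertain.

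The ratio of IGF2BP1 to IGF2BP3 counts was 2.72, 2.69 and 2.75 in controls and 2.23, 2.31 and 2.52 in knockdown libraries. No knockdown library reached the controls. The ratio was 0.864 of the control value on average (exact two-sided permutation p = 0.1, the smallest possible, 0.12 adjusted over 6 ratios). As IGF2BP1 fell without overlap and IGF2BP3 was not called, this gap is no separate evidence. The uncertainty of the IGF2BP3 value also reaches this ratio and the sum and shares below. The ratio of IGF2BP1 to IGF2BP2 was 1.82, 1.69 and 1.84 in controls and 1.40, 1.49 and 1.48 in knockdown libraries (exact permutation p = 0.1, 0.12 adjusted). It was added when the groups of each gene were already seen apart, in opposite directions, so its gap is no separate evidence. The summed CPM of the 3 genes was 664.9 ± 30.2 in controls and 643.1 ± 12.9 in knockdown libraries (n = 3 each), with overlapping groups (exact two-sided permutation p = 0.4). Per kilobase of merged exons, the share of IGF2BP1 among the 3 was 40.4% ± 0.866 in controls and 36.0% ± 0.893 in knockdown libraries, that of IGF2BP2 43.6% ± 1.03 and 47.6% ± 0.715, and that of IGF2BP3 15.9% ± 0.166 and 16.4% ± 0.709 (n = 3 each).

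**Figure D3:**
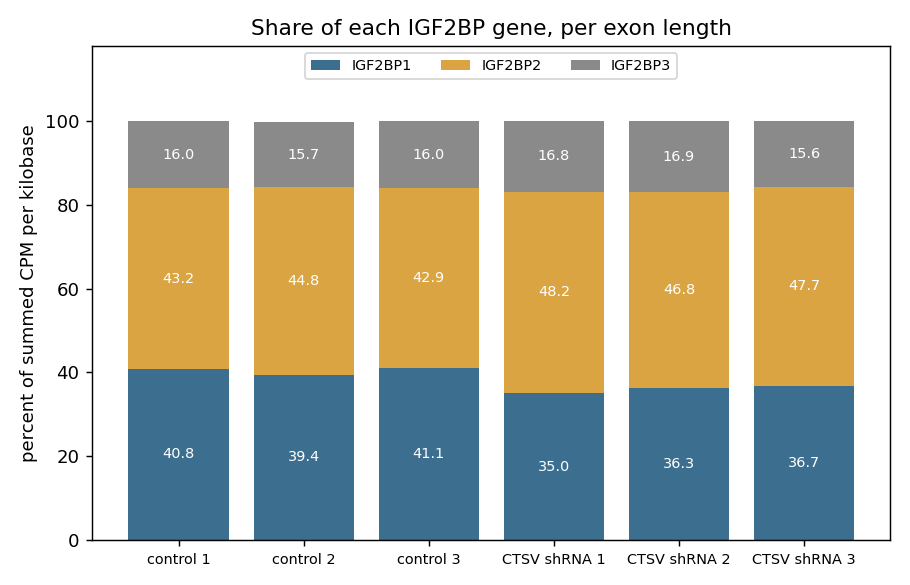
Share of IGF2BP1, IGF2BP2 and IGF2BP3 in their summed CPM per kilobase of merged exons (y axis, percent) in each of 6 libraries (x axis). The IGF2BP1 share is 39.4% to 41.1% in controls and 35.0% to 36.7% in knockdown libraries.

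Among the other 10 tested genes of oncofetal RNA binding and the let-7 axis, 1 rose, 5 fell and 4 were not called. Their median was -0.17, against 0.02 for all tested genes and -0.105 for those with an average log2 CPM of 6 or more. Of all tested genes 40.3% were called, and of those at that level 63.8%. LIN28B, which blocks let-7 maturation, fell by 0.50 (adjusted p = 7.14e-11) from 449.0 ± 26.9 to 316.8 ± 10.2 CPM (n = 3 each). HMGA1, a chromatin protein gene, fell by 0.77 and the RAS family gene NRAS by 0.33. DIS3L2, the exonuclease that degrades let-7 precursors bound by LIN28, rose by 0.54 (adjusted p = 2.13e-05). HMGA2, a classic let-7 target, was at 239.1 ± 9.36 and 249.2 ± 7.07 CPM (n = 3 each) and was not called (adjusted p = 0.34). Its 3′ UTR held 4 let-7 matches in 3003 bases, and that of LIN28B, which fell, held 4 in 4549.

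Transcripts described as bound by IGF2BPs moved in both directions: besides IGF2, 3 of 12 tested rose, 5 fell and 4 were not called (median -0.06). This stands beside 40.3% of all tested genes called and 63.8% of those with an average log2 CPM of 6 or more. MYC (-0.72), the glycolytic enzyme gene HK2 (-0.62), the actin bundler gene FSCN1 (-0.56) and ACTB (-0.26) fell. SRF (-0.20, adjusted p = 0.0774) and E2F1 (0.08) were not called. SRF passed the test without knockdown replicate 1 (-0.25, adjusted p = 0.0467) or 2 (-0.27, 0.0386), and E2F1 with length and GC offsets (0.19, 0.0181).

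Downstream of the receptors, 12 of 28 tested genes of IGF and insulin signalling rose, 5 fell and 11 were not called (median 0.10). Of all tested genes 18.7% rose and 21.6% fell, and 63.8% of those with an average log2 CPM of 6 or more were called either way; no call share at matched level was computed for the list. GRB14, an adaptor that inhibits the insulin receptor, rose by 0.64 (adjusted p = 2.18e-10) from 56.8 ± 1.11 to 88.7 ± 1.72 CPM (n = 3 each). TSC1, which restrains mTORC1, rose by 0.35. The adaptor gene SHC1 fell by 0.54 and the phosphatase gene PTPN11 by 0.41, from 502.2 ± 23.2 to 379.2 ± 18.0 CPM (n = 3 each). RICTOR (0.07) and MTOR (-0.07) were not called, but MTOR was with length and GC offsets (-0.12, adjusted p = 0.0227). Among 15 tested FOXO factors and FOXO-regulated liver genes, 5 rose, 2 fell and 8 were not called (median 0.20). The stress protein gene SESN3 rose by 1.55 from 23.0 ± 2.48 to 67.4 ± 1.10 CPM (n = 3 each), TXNIP, an inhibitor of thioredoxin, by 0.87 and the receptor gene ERBB3 by 0.60. TRIB1, a pseudokinase gene, fell by 0.50, and FOXO3 was at 75.0 ± 3.60 and 73.8 ± 1.63 CPM (n = 3 each) and was not called.

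Other oncofetal and progenitor genes of liver did not share a direction. Besides GPC3 and DLK1, 4 of 11 tested rose, 5 fell and 2 were not called (median -0.12). AFP (0.44) and the stem cell factor gene SALL4 (1.40) rose, SALL4 from 12.7 ± 1.07 to 33.5 ± 2.03 CPM (n = 3 each), while CD24 (-0.47) and LIN28B fell and KRT19 (-0.12) was not called except without knockdown replicate 2 (-0.22, adjusted p = 0.0389). With GPC3 counted, 10 of these 13 genes were called, which became 6 without knockdown replicate 3, beside 40.3% of all tested genes and 63.8% of those with an average log2 CPM of 6 or more. Several of these genes, AFP and GPC3 among them, are abundant, so nothing particular to the list is read from its count.

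**Figure D4:**
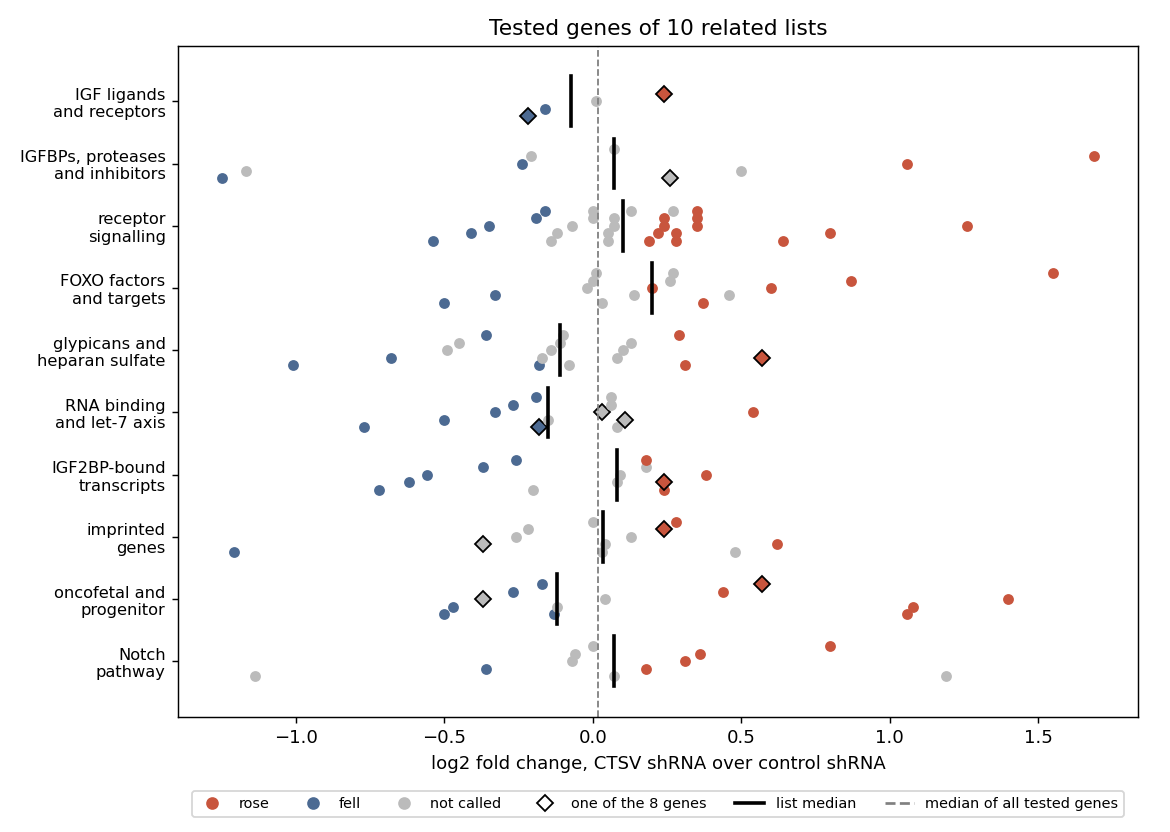
Log2 fold change, CTSV shRNA over control shRNA (x axis), of each tested gene in 10 lists (rows); red rose, blue fell, grey not called, diamonds mark the genes followed here, black bars are list medians and the dashed line the median of all tested genes (0.02). List medians lie between -0.15 for the RNA binding and let-7 list and 0.20 for the FOXO list, with calls in both directions in each row.

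Per kilobase of merged exons, the control levels ran in the order GPC3 (289.2 ± 10.9 CPM per kilobase), IGF2BP2 (40.8 ± 1.27), IGF2BP1 (37.9 ± 2.15), IGF2 (22.1 ± 0.594), IGF2BP3 (14.9 ± 0.743), IGF1R (7.80 ± 0.580), IGFBP4 (3.58 ± 0.442), DLK1 (1.69 ± 0.410) and IGFBP1 (0.252 ± 0.0621; SD, n = 3 each). Among neighbours, only IGF2BP2 and IGF2BP1 overlapped in the controls, at 39.8 to 42.2 and 35.6 to 39.9 CPM per kilobase. In knockdown libraries they were apart, at 43.4 to 45.1 and 31.9 to 34.7, and the order of the 9 genes was the same. Merged exon length counts every annotated exon, so a gene whose cells use short transcripts is placed too low.

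The profiles most like GPC3 and IGF1R, the called genes at either end of the fold changes, were sought among 10675 tested genes. These had an average log2 CPM of 1 or more and passed a filter on gene names. The filter took out names of clone, LINC, microRNA and antisense type, and any name ending in P and a number. IGF2BP1, IGF2BP2, IGF2BP3 and IGFBP4 were thereby left out of the search. Likeness was the largest difference over the 6 libraries between centred log2 CPM values. For GPC3 the closest of the genes searched were DMTF1 (0.0301), COL6A1 (0.0421) and MYLIP (0.0494), with log2 fold changes of 0.57, 0.53 and 0.58. For IGF1R they were SLC22A15 (0.0234), KIAA1143 (0.0335) and AGPS (0.0379), with fold changes of -0.21, -0.23 and -0.22. SLC22A15 was not called (adjusted p = 0.0639) except without control replicate 2 (0.0222) or with all entries kept (0.02).

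In the authors' deposited table, 4 of the 9 genes have an adjusted p under 0.05, and these are IGF2, IGF1R, GPC3 and IGF2BP1. With its sign turned to knockdown over control, the authors' deposited table gives log2 fold changes of 0.56 for GPC3, 0.23 for IGF2, -0.23 for IGF1R and -0.19 for IGF2BP1, and 0.10 for IGF2BP2 with an adjusted p of 0.0964.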

How the data were processed

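RNA-seq of 6 Huh7 libraries was deposited as a single table. Its per-gene values are raw counts made by the authors, with no normalization recorded. The submitters' processing notes name hg38 and the tools SAMtools, StringTie and HISAT2. Which counter, annotation, multi-mapping rule and strand setting made the counts is not given in the sources used. Log2 fold changes (control over knockdown) and p-values of the authors stand in the same deposited table, with no tool named.

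Of 28915 entries, 1521 exact copies of a name were removed, leaving 27394 names. The whole table was tested with edgeR 4.0.16 (R 4.3.3; quasi-likelihood test, TMM, filterByExpr, Benjamini-Hochberg adjustment over 15968 genes, no covariate); adjusted p under 0.05 is called, and "rose" and "fell" mean called. The biological coefficient of variation was 6.87%. The script was tested on simulated data. Exon lengths came from GENCODE v29, which held 99.6% of the names. Alternatives included DESeq2 1.42.0, other scaling and filters, offsets (loess span 0.5) and leaving out each library. The genes, lists and tests were chosen with earlier results of these data known. Named are the 10 genes, CTSV and, per list, up to 4 called genes of smallest adjusted p and up to 2 uncalled genes of highest level; for likeness, the 3 closest genes. Listed genes outside this rule are only counted, except ALB, LYZ and genes overlapping one of the 10, such as MALSU1, which are named beside the result they touch. The ratio of H19 to IGF2 was not analysed here. Library totals only, in place of TMM, was chosen as an alternative after seeing the data.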

Additional observations from a re-analysis of the deposited data

How the results depend on the processing

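The 4 calls among the 8 tested genes (IGF2, IGF1R, GPC3, IGF2BP1) kept direction and side of the threshold under all 15 alternatives, and the number called was 4 or 5 in each. Asking also for a 1.5-fold change left 0 of them (edgeR, where 6 of the 8 have an unadjusted p under 0.05; 0 also with DESeq2, but 1, GPC3, in 4 of the 15 alternatives, a count added after seeing the data), 20 in place of 68 called genes over all lists and 2004 in place of 6433 over the whole table. Replicate numbers did not pair the samples: correlations of same-numbered deviations were -0.013, 0.023 and 0.062 over 15968 genes, and library 1 of the controls correlated more with knockdown library 3 (0.036). With the replicate block 6486 genes were called over the whole table, 67 over the lists and 4 of the 8. Leaving out 1 library gave 5486 to 5913 calls over the whole table and 56 to 62 over the lists. Values near 0 that were never called changed sign. Leaving out 1 library, IGF2BP3 ranged from -0.01 (without control replicate 2) to 0.06, GRB10 from -0.04 to 0.03 and NOTCH1 from -0.13 to 0.11. INSR was -0.01 without a low-count filter, -0.02 with length and GC offsets and with all entries kept, and -0.04, -0.00379 and -0.00439 without control replicate 2 and knockdown replicates 1 and 3. FOXO3 was 0.02 with library totals only, and HMGA2 -0.02 with the offsets. GRB10 was -0.02 without the filter, -0.03 with the offsets and with all entries kept, -0.000605 without mitochondrial genes, -0.01 with DESeq2, and -0.04 without control replicate 1 or knockdown replicate 2. NOTCH1 was 0.04 with library totals only, 0.00353 at a mean CPM of at least 1, and 0.01, 0.11, 0.09 and 0.02 without control replicates 1 and 3 and knockdown replicates 1 and 2. The cause was not tested. IGFBP1, with 2 to 8 counts a library, was too shallow to test.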
